A study of Mus musculus with 8 samples.

Results

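The genes described here carry out the cell's answer to misfolded proteins, in the endoplasmic reticulum (ER) and in the cytosol. They are the rows of the deposited expression table whose probe set number is the Entrez gene number of a listed gene, 42 of the 24574 genes tested, and each of the 42 had a row. By the transcription factor best known to drive them, 7 form the ATF4 group (Atf4 itself included), 18 the XBP1/ATF6 group (Xbp1 itself included) and 13 the HSF1 group. The other members are the 3 ER stress sensor genes Atf6, Ern1 and Eif2ak3, and Hsf1. No measured value of these arrays enters the rule, but the members were chosen with earlier results of these data known.

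The 8 arrays, of Affymetrix's whole-transcript kind, hold RNA of mouse macrophages, which had been grown from the marrow of wild-type animals aged 8 to 10 weeks for 7 days. Medium conditioned by L cells supplied the growth factor M-CSF, at 30% during growth and 15% during treatment. Of these samples, 4 received synthetic hepcidin, the peptide hormone of iron balance, at 10 µg/ml for 1 h, and 4 received PBS. The sources used here give neither the mouse strain nor the time in PBS. The labels number the samples 1 to 4 in each group without saying whether a number is an animal or a culture, and the p-values then rest on a spread between samples that may be technical.

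Array medians lay between 4.89 and 4.97 on the log2 scale, and precision is limited by having 4 arrays a group. Macrophage markers such as Csf1r, Adgre1 and Cd68 stood at 8.31 to 13.1 with PBS, over 8 markers, while 26 endothelial and lymphocyte (B, T and NK) markers had a median of 3.87 and a 90th percentile of 5.94. Both arrays numbered 1 stood apart, at -34.9 (PBS) and -26.3 (hepcidin) on a first principal component with 36.4% of the variance, against 6.90 to 13.3 for the other 6. The list of neutrophil and precursor markers had a mean level of 5.19 and 5.00 on the arrays numbered 1 and of 5.95 to 6.51 on the others. Of its 11 genes, 8 lay lower on both arrays numbered 1 than on all others, and Ly6g, Camp and Mki67 did not. Such genes made up 10.2% of all genes and 19.6% of those with a mean log2 value of at least 6. In such bulk samples, fewer cells of a type and less RNA per cell cannot be told apart.

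ER stress is read by 3 sensor proteins in the ER membrane. PERK, encoded by Eif2ak3, phosphorylates the initiation factor eIF2 and so slows translation while that of ATF4 rises. Related kinases that sense amino acid shortage, haem shortage or viral RNA meet on the same factor. IRE1, encoded by Ern1, splices the Xbp1 mRNA, and ATF6 is cut into a free transcription factor, and both pathways switch on ER chaperones and the machinery that exports misfolded proteins for degradation. HSF1 answers misfolded proteins in the cytosol by switching on heat shock chaperones. The arrays measured mRNA levels and show neither the splicing of Xbp1 nor the phosphorylation of these proteins.

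Promoter sequences are shown because the 3 factors act through short elements there. RefSeq windows of mouse build GRCm38.p6, from 250 bases before to 50 after the start, were given for 35 of the 42 members and for 27025 genes in all, and 4 motifs were searched on both strands. They were the ER stress element (CCAAT, any 9 bases, then CCACG), the XBP1-type element TGACGTG, the ATF4-type element TGATGNAA and the heat shock element (GAA and TTC in turn, 3 units with 2 bases between them, where matches may overlap). Genes were counted, and a gene with several windows counted if any of them held a match. The ER stress element was found for 7 of 16 genes of the XBP1/ATF6 group, or 43.8%, against 0.137% of all genes with a window. It was found for 0 of 7 and 0 of 10 genes of the ATF4 and HSF1 groups. The ATF4-type element was found for 3 of 7 genes of the ATF4 group (Asns, Chac1 and Trib3), for 1 of 16 of the XBP1/ATF6 group (Herpud1) and for 0 of 10 of the HSF1 group, against 4.51% of all. The heat shock element was found for 4 of 10 genes of the HSF1 group (Chordc1, Hsph1, and Hspd1 and Hspe1, which share theirs) and in no window of the other groups, against 0.662% of all. The element TGACGTG was in 1 member's window, that of Hspa5, against 2.22% of all. The groups follow the factors known to drive the genes, so a higher share of their elements is not an independent result. A match describes letters only, and no match says nothing of sites outside the window.

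The 250 bases before the start are shown for the ER chaperone gene Hspa5 (chr2:34771840-34772089, plus strand) and for Chac1 of the ATF4 group (chr2:119350992-119351241, plus strand), 5′ to 3′, with matches in capitals.
Hspa5: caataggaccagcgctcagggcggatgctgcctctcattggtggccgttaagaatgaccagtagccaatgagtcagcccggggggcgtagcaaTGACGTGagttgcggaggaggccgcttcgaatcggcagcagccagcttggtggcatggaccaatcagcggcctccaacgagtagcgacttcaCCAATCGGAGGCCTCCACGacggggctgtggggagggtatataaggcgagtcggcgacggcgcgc
Chac1: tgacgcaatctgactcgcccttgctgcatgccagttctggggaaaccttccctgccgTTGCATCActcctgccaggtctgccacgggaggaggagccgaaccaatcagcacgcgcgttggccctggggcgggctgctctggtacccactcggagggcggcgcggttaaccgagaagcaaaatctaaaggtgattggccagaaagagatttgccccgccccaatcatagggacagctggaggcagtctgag

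Single matches are shown with 5 bases on each side, again with the match in capitals and read along the gene's strand. The search fixed the motif letters, so their likeness between sites is not a result. The ER stress elements lie 162 bases before the start in Calr (chr8:84847070-84847098, minus strand), 98 in Pdia6 (chr12:17266486-17266514, plus strand), 126 in Creld2 (chr15:88819515-88819543, plus strand), and 107 and 212 in Hsp90b1 (chr10:86705528-86705556 and chr10:86705633-86705661, minus strand). The ATF4-type elements lie at 23 bases in Asns (chr6:7693220-7693237, minus strand) and at 112 in Herpud1 (chr8:94386312-94386329, plus strand). The Hspd1 match, 144 bases before its start (chr1:55088059-55088081, minus strand), is also the Hspe1 match on the opposite strand, since these neighbours start apart from each other.
Calr: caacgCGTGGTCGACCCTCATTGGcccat
Pdia6: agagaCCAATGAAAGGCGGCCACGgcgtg
Creld2: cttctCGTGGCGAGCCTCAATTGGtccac
Hsp90b1 near: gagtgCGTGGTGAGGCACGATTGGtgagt
Hsp90b1 far: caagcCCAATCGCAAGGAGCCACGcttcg
Asns: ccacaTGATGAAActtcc
Herpud1: gcgggTTGCATCAgcccg
Hspd1: gggccTTCCGGAAGGTTCtagaa

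Levels of the ATF4 group differed between replicate numbers far more than between hepcidin and PBS. All 7 members were highest on number 1 in the mean of its arrays. So were 7694 of all 24574 genes and 2819 of the 9570 with a mean log2 value of at least 6. The mean was lowest on number 3 for 5 of the 7 members and on number 4 for Asns and Sesn2. In the XBP1/ATF6 group, 14 of 18 genes had their lowest mean on number 1, as had 7039 of all 24574 genes and 3718 of the 9570 with a mean log2 value of at least 6. With hepcidin, no member of any group passed the test.

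Each gene was tested for differences between numbers with a moderated F test in limma, with treatment in the fit. This called 19 of 42 members at an adjusted p under 0.05, against 5.66% of all genes. The 9570 genes with a mean log2 value of at least 6, below called the brighter genes, had a share of 11.9% in that fit. A fit on these genes alone called 31.0% of them, with 24 of the 40 members that reach this level. The ATF4 group had 7 of 7 called in both fits. The XBP1/ATF6 group had 7 of 18 called over all genes and 11 of 18 over the brighter genes. The HSF1 group had 4 of 13 and, over the brighter genes, 4 of 11, which is near the share of all bright genes. Without both arrays numbered 1, limma called 173 genes and 2 members, Trib3 and Hsph1, but all 7 ATF4 members still had an unadjusted p under 0.05, as had 14.7% of all genes. Without number 4, 10 members were called, against 851 of all genes (3.46%).

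**Figure D1:**
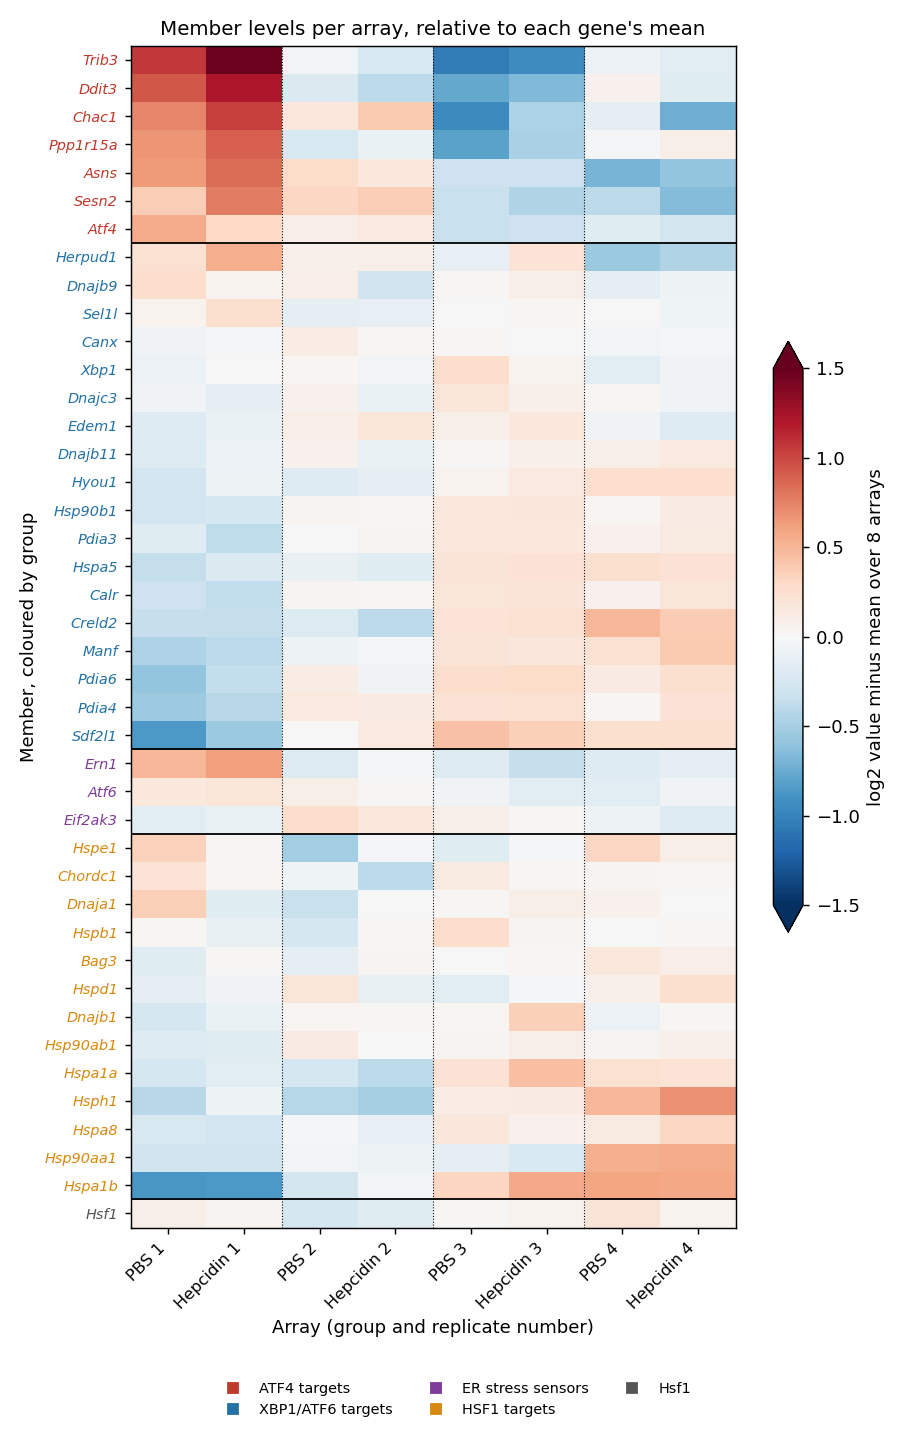
Log2 value of each of the 42 members (rows, coloured by group) on each of the 8 arrays (columns), shown as the difference from that gene's mean over the arrays; red is higher and blue lower. The ATF4 rows are red and most of the XBP1/ATF6 rows blue on both arrays numbered 1.

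Within the ATF4 group, the most variable gene was Trib3 (Entrez gene 228775), a pseudokinase gene that dampens ATF4 signalling. Its log2 values with PBS were 8.48, 7.39, 6.37 and 7.35 on numbers 1 to 4, and with hepcidin 8.90, 7.19, 6.48 and 7.26. The means of numbers 1 and 3 differed by 4.81-fold (limma F test, adjusted p = 0.00196), while on each number the treated and untreated arrays were within 0.42 of each other. Ddit3 (13198), which encodes CHOP, a factor of prolonged ER stress, had PBS values of 8.93, 7.77, 7.22 and 8.06 and hepcidin values of 9.21, 7.60, 7.33 and 7.81. Both arrays numbered 1 lay above all others, and the range between numbers was 3.47-fold (limma adjusted p = 0.00295). Chac1 (69065), whose enzyme degrades glutathione, stood at 7.86, 7.29, 6.18 and 6.98 with PBS and at 8.15, 7.53, 6.65 and 6.40 with hepcidin. Its values on number 4 were 0.58 apart, the widest gap between same-numbered arrays among all members.

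Ppp1r15a (17872) encodes GADD34, which brings a phosphatase to eIF2 and so restarts translation. It had PBS values of 7.27, 6.37, 5.81 and 6.59 and hepcidin values of 7.51, 6.51, 6.12 and 6.69, again with number 1 on top and number 3 at the bottom (limma F test, adjusted p = 0.00232). Asns (27053), the asparagine synthetase gene, ranked the numbers otherwise, at 11.20, 10.84, 10.25 and 9.86 with PBS and 11.40, 10.72, 10.25 and 9.97 with hepcidin. Number 4 was its lowest, and the range was 2.61-fold (limma adjusted p = 0.00292). Sesn2 (230784), a stress-responsive inhibitor of mTORC1 and here named after its values were seen, had number 4 lowest as well, at 6.54 and 6.28 against 7.30 and 7.70 on number 1. On Sesn2 the PBS array numbered 1 and the hepcidin array numbered 2 nearly met, at 7.30 and 7.31, so it alone of the group did not have both arrays numbered 1 above all others. Atf4 mRNA itself (11911) varied least, at 10.25, 9.79, 9.36 and 9.51 with PBS and 9.99, 9.84, 9.39 and 9.42 with hepcidin, a 1.68-fold range (limma F test, adjusted p = 0.0224).

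**Figure D2:**
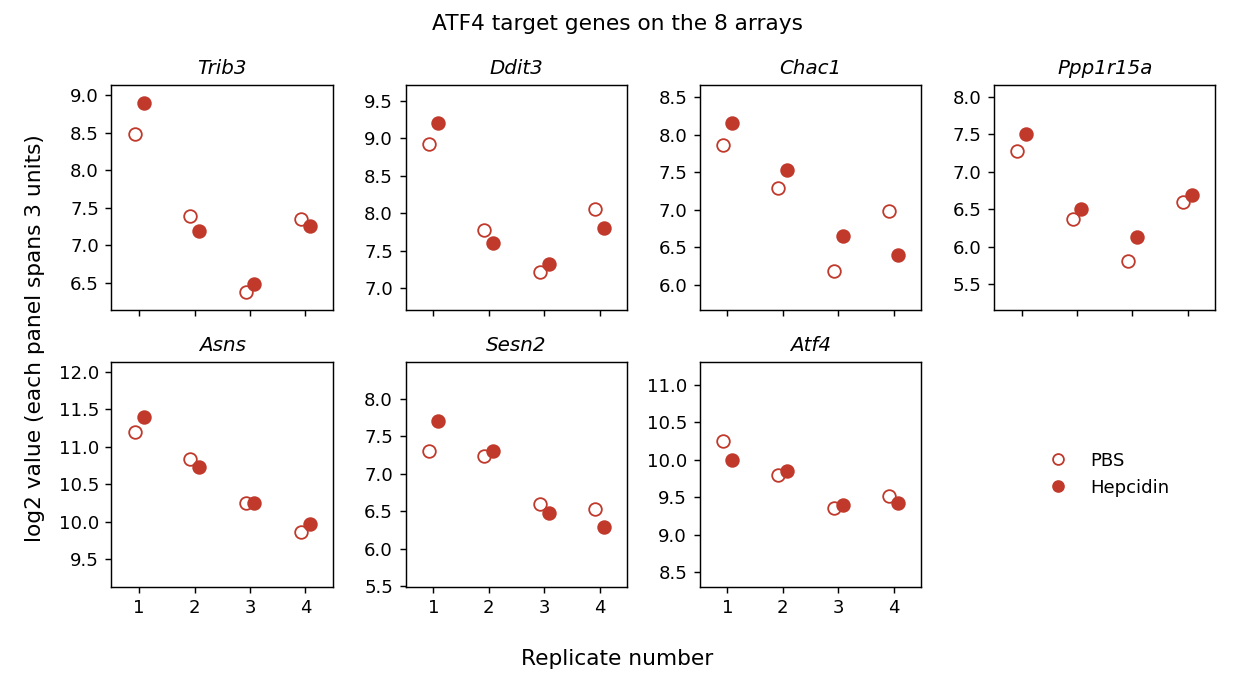
Log2 values of the 7 ATF4 group genes (panels, each spanning 3 log2 units) by replicate number, with PBS as open and hepcidin as filled circles. On number 1 both circles lie high in every panel, and for Chac1 the circles of number 4 lie 0.58 apart.

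Both arrays numbered 1 lay above all other arrays for 6 of the 7 ATF4 members, against 9.81% of all genes and 14.9% of those with a mean of at least 6. They lay below all others for 8 of the 18 XBP1/ATF6 members and 5 of the 13 HSF1 members, against 10.2% of all genes and 19.6% of the brighter ones. This count and the contrast of number 1 with the other numbers were chosen after the values were seen, and the contrast is given with its SE and no test. The median contrast was 1.04 in the ATF4 group, -0.31 in the XBP1/ATF6 group and -0.24 in the HSF1 group, against 0.01 over all genes. The neutrophil and precursor markers moved with number 1 too, with a median contrast of -1.21, and the 8 macrophage markers with one of -0.28, and their part in these differences was not tested.

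Of the 7 called genes of the XBP1/ATF6 group, 5 had both arrays numbered 1 below all others, the chaperone and folding genes Hspa5, Sdf2l1, Pdia4 and Pdia6 and the secreted protein gene Manf. Hspa5 (14828) encodes BiP, the main ER chaperone, which also holds the sensors inactive. It stood at 11.40, 11.64, 11.94 and 11.99 with PBS and 11.53, 11.57, 11.97 and 11.96 with hepcidin, so that numbers 1 and 2 lay below numbers 3 and 4 in both groups. Its range of 1.42-fold was at the edge of the threshold (limma F test, adjusted p = 0.0481), and it did not pass after median centring (limma adjusted p = 0.0667), after repeated quantile normalization or with unnamed probe sets added. Sdf2l1 (64136), an ER protein that works with BiP, had the widest range of the XBP1/ATF6 group, with PBS values of 7.82, 8.69, 9.11 and 8.92 and hepcidin values of 8.12, 8.82, 9.04 and 8.92. The arrays numbered 1 lay below the others by 0.95 ± 0.10 on the log2 scale (SE; limma F test, adjusted p = 0.0074).

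Manf (74840), which encodes a secreted ER stress protein, had PBS values of 6.65, 7.04, 7.30 and 7.34 and hepcidin values of 6.70, 7.08, 7.28 and 7.51 (limma F test, adjusted p = 0.0169). Creld2 (76737), another ER stress-induced secreted protein gene, had 8.87, 9.01, 9.42 and 9.72 with PBS and 8.86, 8.82, 9.44 and 9.59 with hepcidin. Here number 2 was as low as number 1, and number 4 was highest (limma F test, adjusted p = 0.00992). The disulphide isomerase genes Pdia4 and Pdia6, named after their values were seen, were called as well, each with a contrast of -0.64 on number 1. Hsp90b1, Calr, Pdia3 and Hyou1, also named after their values were seen, had contrasts of -0.37, -0.46, -0.37 and -0.25. They did not pass in the main limma test over all genes, but did over the brighter genes and, over all genes, with a trend and robust variance. Calr also passed over all genes after cyclic loess and with the replicate number alone in the fit. Canx, the gene of a membrane-bound relative of calreticulin and also named after its values were seen, had the narrowest range of all members, 0.10 on the log2 scale. Its window holds an ER stress element, and a relation between elements and ranges was not tested.

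Not every gene of the XBP1/ATF6 group was low on number 1. Herpud1 (64209), a degradation factor of the ER membrane, was high there, at 9.25, 9.08, 8.89 and 8.45 with PBS and 9.55, 9.10, 9.21 and 8.56 with hepcidin. It was the called gene of this group with number 1 on top (contrast 0.52 ± 0.09, SE; limma F test, adjusted p = 0.0182). Its window is the 1 of that group with the ATF4-type element shown above. In the ATF4 group, where all members were highest on number 1, the element was found for 3 of 7. Whether the element bears on these levels was not tested. Xbp1 (22433) had PBS values of 10.46, 10.57, 10.81 and 10.37 and hepcidin values of 10.53, 10.50, 10.59 and 10.48, with both arrays numbered 3 highest and the treatment groups overlapping, and it did not pass between numbers (limma adjusted p = 0.467). The co-chaperone genes Dnajb9 and Dnajc3, which regulate IRE1 and PERK, had ranges between numbers of 0.27 and 0.22 and did not pass.

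Among the sensors, Ern1 (78943) was called. Its values were 9.15, 8.45, 8.46 and 8.46 with PBS and 9.27, 8.62, 8.31 and 8.52 with hepcidin, so that number 1 alone stood out (contrast 0.74 ± 0.09, SE; limma F test, adjusted p = 0.0157). Without number 1 it did not pass (limma adjusted p = 0.724). Atf6 (226641) stood at 9.97 to 10.32 and Eif2ak3 (13666) at 7.11 to 7.57 over the 8 arrays, and neither passed over all genes. Eif2ak3 passed over the brighter genes, with number 2 highest (limma F test, adjusted p = 0.0348).

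The HSF1 group was mixed. Hspa1b (15511), a stress-inducible HSP70 gene, had PBS values of 5.73, 6.32, 6.93 and 7.19 and hepcidin values of 5.73, 6.56, 7.16 and 7.18. Number 1 lay below the others by 1.16 ± 0.09 (SE), and the range between numbers was 2.73-fold (limma F test, adjusted p = 0.00213). Its near-identical neighbour Hspa1a (193740) had 7.71, 7.71, 8.19 and 8.21 with PBS and 7.80, 7.57, 8.42 and 8.18 with hepcidin, with numbers 1 and 2 low and a 1.59-fold range (limma adjusted p = 0.0325). Probes of such copies can bind both mRNAs, so how the signal divides between them is uncertain.

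Hsph1 (15505), which encodes HSP110, a nucleotide exchange factor of HSP70, was highest on number 4, at 9.25 with PBS and 9.44 with hepcidin. Its other values were 8.33, 8.33 and 8.87 with PBS and 8.68, 8.25 and 8.88 with hepcidin on numbers 1 to 3 (limma F test, adjusted p = 0.0109). Hsp90aa1 (15519), the inducible cytosolic HSP90 gene, was called too, with number 4 at 4.85 and 4.88 and the other arrays at 4.02 to 4.28. Only Hsp90aa1 and Hspb1 (named after its values were seen) had a mean below 5.94, the 90th percentile of the endothelial and lymphocyte markers. The highest of these markers had a mean of 7.51, and other members, such as Trib3 (mean 7.43) of the ATF4 group, lay below it. Hspa8 (15481), the constitutive HSP70 gene, stood at 12.42, 12.63, 12.83 and 12.80 with PBS and 12.38, 12.54, 12.73 and 12.98 with hepcidin, and did not pass in the main test over all genes. It passed over the brighter genes (limma adjusted p = 0.018) and, over all genes, with a trend and robust variance. Hsf1 (15499), at 7.41 to 7.87, did not differ between numbers at the threshold, nor did Dnajb1, Bag3 and Chordc1, genes of HSP70 and HSP90 co-chaperones.

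**Figure D3:**
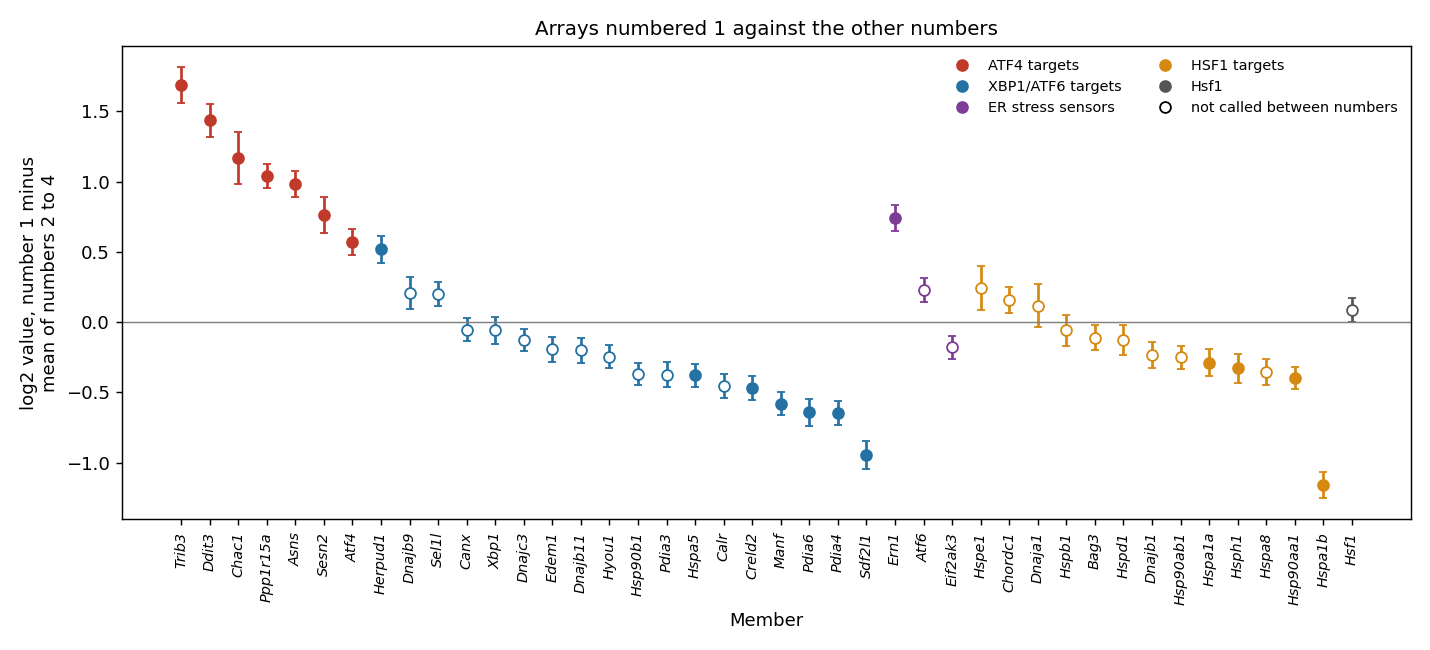
Difference on the log2 scale between the arrays numbered 1 and the mean of numbers 2 to 4 for each member, with SE bars from limma; filled points were called between numbers by the F test and open points were not. The ATF4 group lies between 0.57 and 1.69, and the XBP1/ATF6 group reaches from 0.52 for Herpud1 down to -0.95 for Sdf2l1.

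The other genes of these pathways come from lists chosen with earlier results of these data known. Of 29 further genes of the ATF4 and eIF2 kinase pathway, 17 were called between numbers by limma, 13 of them with both arrays numbered 1 above all others. Of 39 further ER genes 1 was called (Ero1a, an ER oxidase gene), and of 40 further heat shock and chaperonin genes 2 (Hspa4l and Hspa9). Over all genes the share called was 5.66%, and among the brighter genes in the same fit 11.9%. Both arrays numbered 1 lay above all others for 398 of the 1392 genes called. The following 3 are named after their values were seen. Cth, whose enzyme makes cysteine, had values of 7.92 (PBS) and 8.41 (hepcidin) for number 1 and of 5.07 to 6.21 on the other 6 arrays. Slc7a11, the cystine importer gene, stood at 8.17 and 8.50 on number 1 and lowest on number 3, at 5.73 and 5.83. Atf3, an ATF4 target that many other stimuli induce, did not differ at the threshold, with values of 10.37 to 10.88 over the arrays.

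The comparison of hepcidin with PBS asked whether these stress genes respond within 1 h. In limma no member passed an adjusted p of 0.05, and 0% of all genes did. No member had an unadjusted p under 0.05 either, against 697 of all 24574 genes, and the smallest among the members was 0.198 for Chordc1. With the replicate number as a block, 1 member had an unadjusted p under 0.05, Ppp1r15a, against 1204 of all genes. On the same arrays the cytokine gene Tnf was higher with hepcidin by 1.28 ± 0.14 (SE) in 4 of 4 pairs, and it too stayed short of the threshold in limma (adjusted p = 0.0784).

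The sizes of the differences were small in all 3 target groups. The median log2 change was 0.05 in the ATF4 group, with 5 of 7 members higher, 0.02 in the XBP1/ATF6 group, with 12 of 18 higher, and 0.02 in the HSF1 group, with 7 of 13 higher. Over all genes the median was 0.00, with 12410 of 24574 higher. In the 4 pairs the ATF4 median was 0.28, 0.05, 0.11 and -0.09, and 6, 4, 5 and 2 of the 7 members were higher with hepcidin. The XBP1/ATF6 medians were 0.08, -0.03, 0.01 and 0.07, and those of the HSF1 group 0.01, -0.03, 0.04 and 0.01. In pair 1 the genes with a mean of at least 6 had a median of 0.07.

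**Figure D4:**
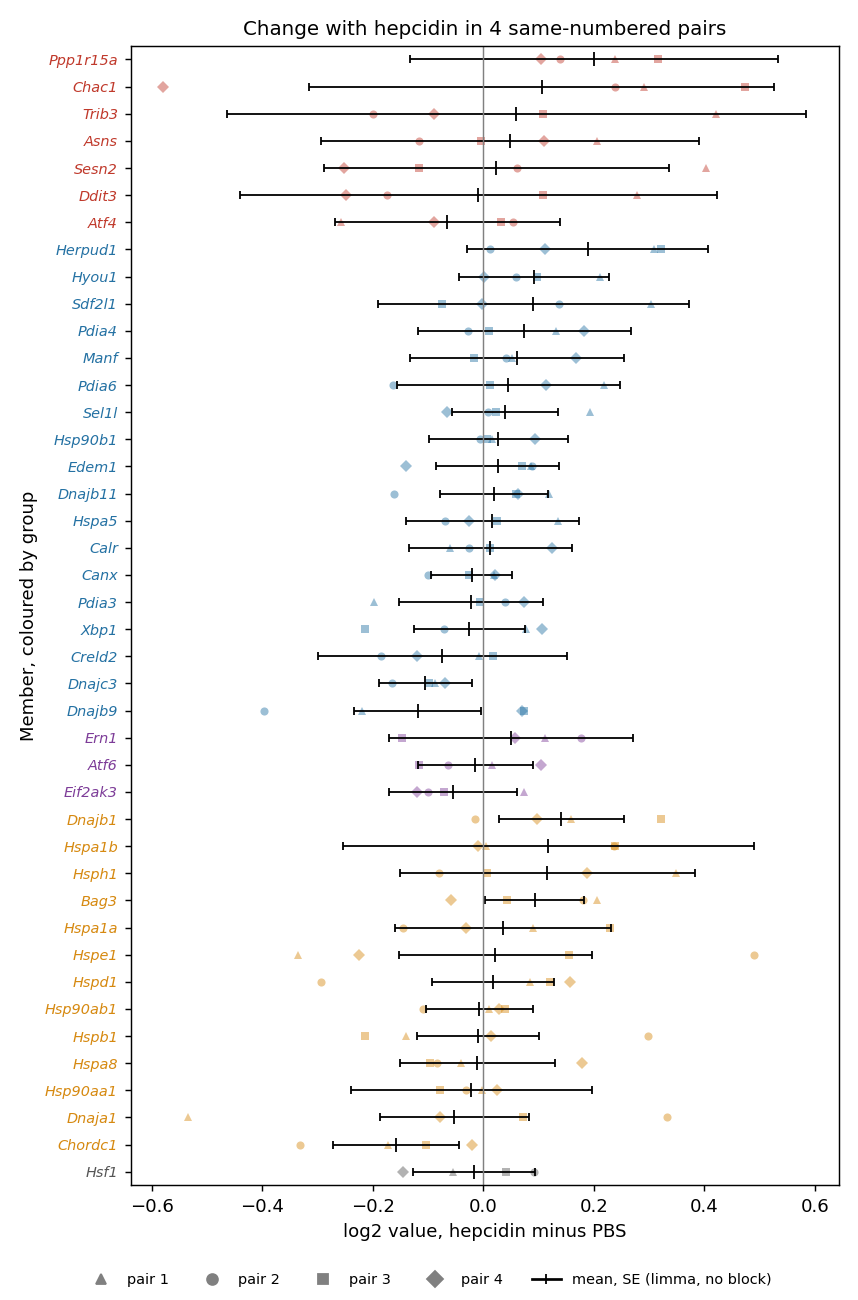
Log2 value with hepcidin minus PBS for each member, with a symbol for each of the 4 same-numbered pairs and the mean with its SE from limma without the block (black). Symbols lie on both sides of 0 for most members, and the SE bars are widest in the ATF4 group.

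The error of these changes depended on the group. The median SE was 0.34 in the ATF4 group, 0.13 in the XBP1/ATF6 group, 0.14 in the HSF1 group and 0.11 over all genes. With the replicate number as a block it was 0.10, 0.07, 0.08 and 0.08. The SD among the PBS arrays showed the same order, with medians of 0.60, 0.20 and 0.22 in the ATF4, XBP1/ATF6 and HSF1 groups and 0.15 over all genes. With the block, the 95% confidence intervals of all 42 members lay between -0.36 and 0.48 on the log2 scale. Without it they reached from -1.11 to 1.23, both for Trib3, so the fit without the block bounds the ATF4 group far less tightly.

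Among single members, Ppp1r15a was higher with hepcidin in 4 of 4 pairs, by 0.24, 0.14, 0.32 and 0.10. Its mean change was 0.20 ± 0.33 (SE) without the block and 0.20 ± 0.07 with it, and it did not pass over all genes (limma with the block, adjusted p = 0.973). Herpud1 and Hyou1 were also higher in 4 of 4 pairs, Hyou1 by under 0.01 in pair 4, with mean changes of 0.19 ± 0.22 and 0.09 ± 0.14 (SE). Dnajc3 and Chordc1 were lower in 4 of 4 pairs, at -0.10 ± 0.08 and -0.16 ± 0.11 (SE). Of the 42 members, 3 were thus higher and 2 lower in 4 of 4 pairs. Such genes were not counted over all genes, so these counts are not a sign of a response. The pair differences of Dnajb1, an HSP40 gene, were 0.16, -0.01, 0.32 and 0.10, with a mean of 0.14 ± 0.11 (SE), and that of Bag3 was 0.09 ± 0.09.

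In the fit without the block, the key genes listed next changed by less than their SE, unlike Dnajb1 above. With the block, Hspa1b (0.12 ± 0.08, SE) and Herpud1 (0.19 ± 0.08) also changed by more than their SE. The values that follow are without the block. Ddit3 changed by -0.01 ± 0.43, Trib3 by 0.06 ± 0.52, Chac1 by 0.11 ± 0.42 and Atf4 by -0.07 ± 0.20 (SE). Hspa5 changed by 0.02 ± 0.16 and Xbp1 by -0.03 ± 0.10, and the sensors Atf6, Ern1 and Eif2ak3 by -0.01 ± 0.10, 0.05 ± 0.22 and -0.05 ± 0.12. Hspa1a changed by 0.04 ± 0.20, Hspa1b by 0.12 ± 0.37, Hspa8 by -0.01 ± 0.14 and Hsf1 by -0.02 ± 0.11. The chaperonin partners Hspd1 and Hspe1, named after their values were seen, which share the heat shock element shown above, differed in sign in 3 of 4 pairs. Hspe1 had pair differences of -0.33, 0.49, 0.16 and -0.22 and Hspd1 of 0.08, -0.29, 0.12 and 0.16.

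The further genes of these pathways gave 0 calls with hepcidin in each list in limma, and none with an unadjusted p under 0.05. With the replicate number as a block, 1 had an unadjusted p under 0.05, Tnfrsf10b of the ATF4 pathway list. Of the 29 genes of the ATF4 pathway 17 were higher, of the 39 ER genes 25 and of the 40 heat shock genes 28, with median changes of 0.03 each. Over all genes 12410 of 24574 were higher, with a median of 0.00. Of the 9570 brighter genes 5408 were higher, with a median of 0.01. The genes with the smallest unadjusted p were Tnfrsf10b (0.23 ± 0.15, SE) and Ppp1r15b (0.09 ± 0.09), Os9 (0.11 ± 0.08) and Creb3 (0.16 ± 0.15), and Hspa2 (0.18 ± 0.11) and Ahsa2 (0.15 ± 0.10).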

How the data were processed

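Biotin-labelled macrophage RNA was read on Affymetrix whole-transcript arrays, per the labels' protocols. The submitters' processing notes name RMA and affy 1.36.1 for the log2 values the authors deposited, which ran from 1.73 to 13.6. The sources used here name no genome build.

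Of 24973 probe sets, 24574 had a gene name, from the platform annotation (24015) or from a RefSeq gene of the same number (24481). The members Hsf1 and Hsp90ab1 were named by RefSeq alone. No filter was applied. Hepcidin was compared with PBS in limma 3.58.1 (R 4.3.3; lmFit, eBayes), and numbers with a moderated F test with treatment in the fit. Benjamini-Hochberg adjustment ran over all genes, with a threshold of 0.05. Both fits were tested on simulated data.

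The members and lists were chosen with earlier results of these data known. Named were 26 members: fixed key genes, members with an unadjusted p under 0.05, and per target group those with the smallest p for treatment and the largest F between numbers, and others where stated. Per further list the 2 genes with the smallest p were named.

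Same-numbered arrays deviated from their group means with correlations of 0.345 to 0.551, others with -0.356 to 0.125, so the numbers pair the arrays. The pairing comes from the titles' numbers and this check. Alternatives were other scalings, filters, variance models, array weights, the replicate block and leaving out arrays. Figures used matplotlib 3.10.9 in Python 3.11.15.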

Additional observations from a re-analysis of the deposited data

Results flagged for a closer look

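In 3 of 52 groups of 4 arrays (26 named members in each treatment group), a single array lay far from the other 3, by a gap that chance gives in about 1 of 20 groups. Ern1 stood at 9.15 on the PBS array numbered 1 and at 8.45 to 8.46 on the other PBS arrays. Chordc1 stood at 8.71 on the hepcidin array numbered 2 and at 9.13 to 9.14 on the other hepcidin arrays. Hsf1 stood at 7.50 on the hepcidin array numbered 2 and at 7.71 to 7.73 on the others.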

How the results depend on the processing

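For hepcidin against PBS, no member was called by limma in any setting run. Over all genes 0 were called, but 1 with the replicate block (Cxcl2), 5 with the replicate block as a random term (Tnf, Nfkbia, Nfkbie, Nfkbiz and Mir146), and 0 to 2 when arrays were left out (Nfkbiz and Tnf without the hepcidin array numbered 2, Nfkbiz without both arrays numbered 2). With both arrays of a number left out and the replicate block kept, 0 to 1 were called (Cxcl2 without number 1, Nfkbiz without number 2). The replicate block changed no call of a member. Leaving out arrays moved the median change of the ATF4 group from -0.22 (without the hepcidin array numbered 1) to 0.30 (without the PBS array numbered 1), that of the XBP1/ATF6 group from -0.073 to 0.078 and that of the HSF1 group from -0.055 to 0.12. With both arrays of a number left out and the replicate block kept, these medians lay at -0.00 to 0.11, -0.00 to 0.04 and -0.018 to 0.033. Of 829 values of named genes under other settings, 92 had the other sign and 0 were called.

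Between numbers, limma called 1392 genes, and 2969 among genes with a mean of at least 6, 2671 among those at or above the median and 2923 with trend and robust variance, with 11, 11 and 12 XBP1/ATF6 members called. With both arrays of a number left out it called 173 to 1050 genes, 2 to 17 members, 1 to 7 of the ATF4 group, 0 to 6 of the XBP1/ATF6 group and 1 to 3 of the HSF1 group, with the fewest genes and members without number 1. The cause was not tested. Without number 4 it called 851 genes, 10 members, 2 of the XBP1/ATF6 group and 1 of the HSF1 group.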
